A study of Homo sapiens with 6 samples.

Results

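The 40 genes described here encode proteins that carry a cell through mitosis. They were chosen by gene symbol as a list of kinases, checkpoint, kinetochore, spindle and cytokinesis genes, by what their proteins do. Earlier results of these data were known when the list was made. Each of the 40 symbols matched 1 row among the 57820 genes of the deposited tables, and all 40 were among the 14044 genes that were tested. The data are total RNA-seq of SEM cells, a human B-cell acute lymphoblastic leukemia (B-ALL) cell line, with 3 CTCF-WT and 3 CTCF-dRBR libraries. In the cells of all 6 libraries the endogenous CTCF, a DNA-binding protein that organizes chromatin loops, carries the miniAID-mClover3 tag, and the auxin analog 5-Ph-IAA directs the tagged protein to degradation through OsTIR1(F74G). Both groups received 5-Ph-IAA for 24 h in total, the first 6 h alone and the remaining 18 h together with doxycycline at 1 µg/mL, which induced an HA-tagged CTCF from the TRE3G promoter. The induced protein was wild-type in CTCF-WT and lacked the RNA-binding region (RBR) in CTCF-dRBR. For CTCF-WT the genotype label gives the miniAID-mClover3 allele and no HA-CTCF transgene, so that this group was taken from the sample titles. The labels do not say whether the 3 libraries of a group came from separate cultures, and p-values measure the spread between these libraries. The comparison asked whether mitosis genes were expressed at another level when CTCF lacked its RBR.

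As background, entry into mitosis is driven by CDK1 bound to cyclin B, and PLK1 and the Aurora kinases act beside it on centrosomes, spindle and chromosomes. Kinetochores, built on the centromeres, hold the spindle microtubules, and unattached kinetochores keep the spindle assembly checkpoint active until CDC20 can switch on the anaphase-promoting complex (APC/C). Most of these genes are transcribed late in the cell cycle. The DREAM complex keeps them low in resting and early cycling cells, and MYBL2 and FOXM1 activate them toward mitosis, through CHR elements near the transcription start. Most also carry CCAAT boxes there, bound by a factor of which NFYA is a subunit.

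Total expected counts ranged from 51732177 to 53166735 in CTCF-WT and from 30034505 to 50457168 in CTCF-dRBR, and 3 counts, the limit below which a gene was treated as not detected, equaled 0.0566 to 0.10 CPM (counts scaled to library size). CTCF-dRBR replicate 1 had the fewest counts and stood apart from the other libraries, with Spearman correlations of 0.913 to 0.968 against 0.971 to 0.997 among the others over the genes tested. CTCF itself, endogenous and induced together, had 209.9, 211 and 249 CPM in CTCF-WT replicates 1 to 3 and 273, 264 and 252 CPM in CTCF-dRBR replicates 1 to 3. Most B-lineage markers were present as the cell line's label says, with 9 of 10 tested and a summed level of 924 to 1119 CPM in CTCF-WT and 629.6 to 1092 CPM in CTCF-dRBR. DNTT, the marker not tested, had 0.038 to 0.29 CPM, and RAG1, the lowest of those tested, had 1.63 to 5.87 CPM. The 5 T-lineage markers summed to 0.0390 to 0.80 CPM, with CD3D at 0 in every library, and the 5 erythroid and platelet markers to 0 to 0.10 CPM, with HBA1, PF4 and PPBP at 0. The 5 myeloid markers summed to 5.56 to 6.76 CPM, of which LYZ was the 1 gene tested, and ELANE was at 0.

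No mitosis gene differed between CTCF-dRBR and CTCF-WT at FDR < 0.05 by limma-voom. No member exceeded 2-fold in either direction, while 1089 of the 14044 genes tested did. The log2 fold change of CTCF-dRBR over CTCF-WT lay above 0 for 29 members and below 0 for 11, between −0.59 for PLK1 and 0.69 for HMMR. The median of the members was 0.24, against −0.0076 over all genes tested, and it was 0.13 without CTCF-dRBR replicate 1 and 0.099 once a trend with the GC content of the transcripts was removed from each library. With this trend removed, 10 of 40 members changed sign and 24 kept their sign at a log2 fold change over 1.5 times smaller. Spindle proteins such as HMMR, ASPM, NUSAP1 and DLGAP5, the spindle checkpoint genes and the cytokinesis genes made up most of the positive side. The chromosomal passenger complex, PLK1, CDC20, SPC24 and CDC25B made up most of the negative side. In total RNA from many cells, a different share of cells in mitosis and a different amount of RNA per cell cannot be told apart.

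The test left 0 of 14044 genes past FDR < 0.05 (0.0%), so that the count of 0 of 40 members equals the background. At an unadjusted p under 0.05, 10 members lay higher in CTCF-dRBR, 25% of the list against 12.6% of all genes tested. At the same threshold 1 member, AURKB, lay lower, 2.5% of the list against 12.8%. With the GC trend removed, 8 members lay higher, 20.0% against 14.4% of all genes, and 2 lower, 5.0% against 16.7%. The 10 higher members as counted were CCNB2, CDC25C, TTK, NUSAP1, HMMR, DLGAP5, ASPM, KIF20A, ECT2 and TOP2A, and the lowest adjusted p of any member was 0.15, for KIF20A. By DESeq2, 0 of 40 members passed FDR < 0.05, with 11.5% of all genes past it. In 16 members all 3 CTCF-dRBR libraries had a higher CPM than all 3 CTCF-WT libraries, 40% of the list against 20.0% of all genes tested. In 2 members, AURKB and UBE2C, all 3 lay below, 5.0% against 17.5%. For each of these members a two-sided exact permutation test on mean CPM gave p = 0.1, the smallest value that 3 libraries against 3 allow. The counts without overlap are on CPM with the GC trend still in place.

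**Figure D1:**
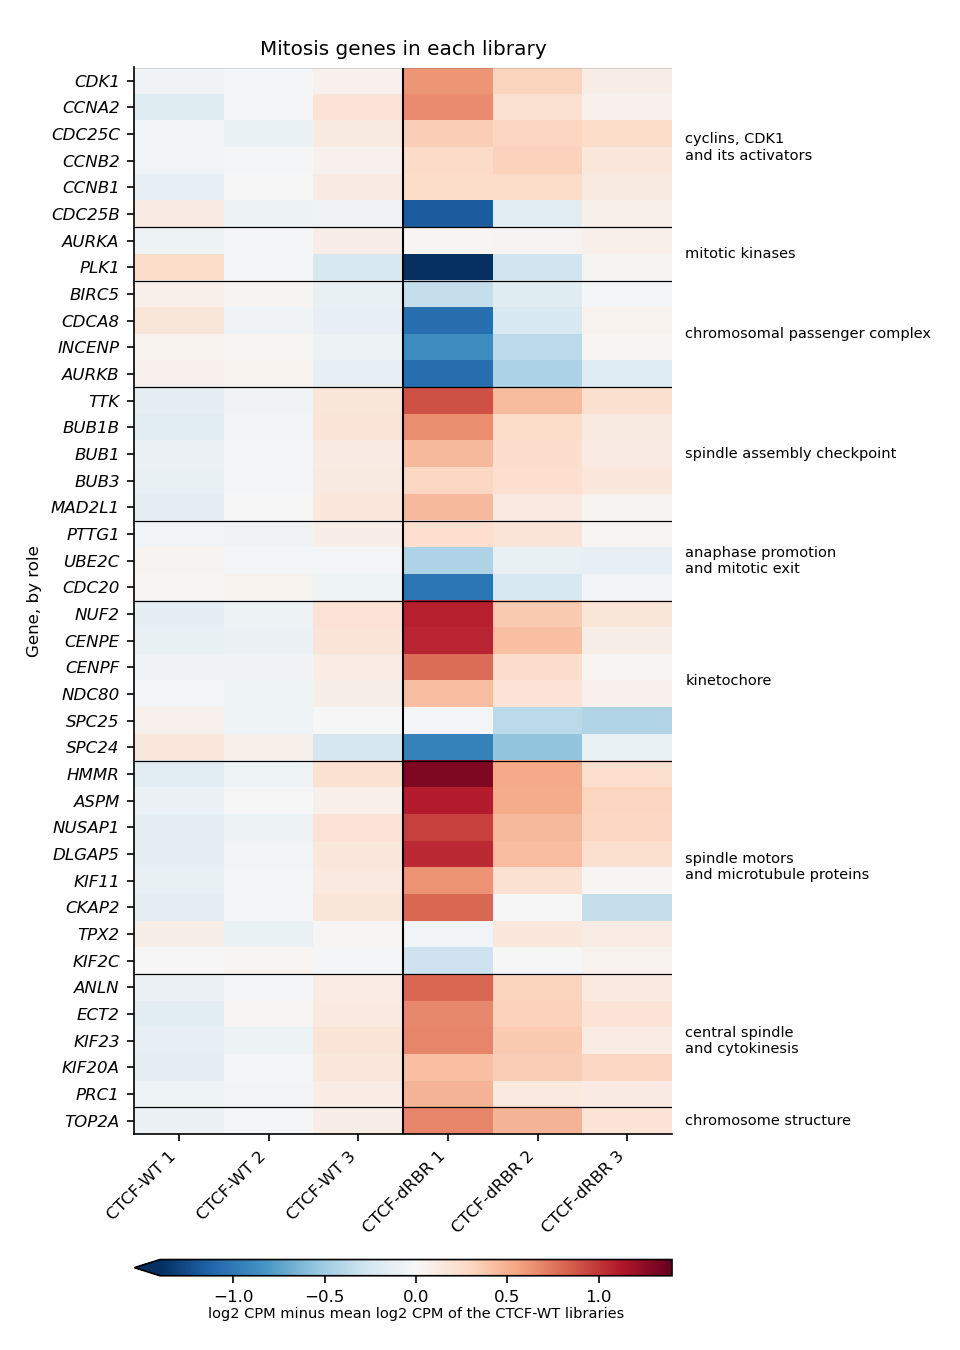
Each cell is the log2 CPM of 1 member (rows, grouped by role) in 1 library (columns) minus the mean log2 CPM of the 3 CTCF-WT libraries, with red above and blue below that mean and the scale ending at −1.4 and 1.4. CTCF-dRBR replicate 1 holds the strongest colors in both directions, from −1.76 for PLK1 to 1.3 for HMMR, and CTCF-dRBR replicate 3 lies closest to CTCF-WT with a median over the members of 0.089.

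The members' deviations were not evenly spread over the libraries. The median over the 40 members, relative to the mean of the CTCF-WT libraries, was −0.074, −0.029 and 0.10 on the log2 scale in CTCF-WT replicates 1 to 3, and 0.44, 0.22 and 0.089 in CTCF-dRBR replicates 1 to 3. The median of CTCF-WT replicate 3 thus lay above that of CTCF-dRBR replicate 3. Over all genes tested, such medians, taken on log2(CPM + 1), lay between −0.016 and 0.016. TMM scaling over these same genes keeps them near 0. CTCF-dRBR replicate 1 was the library farthest from the median of the 6 in 32 of 40 members, the highest in 25 and the lowest in 10. The same counts over all genes tested were not determined, and this library also stood apart over the genes tested as a whole. Without this library the median log2 fold change of the members was 0.13, with 29 above 0 and 11 below. Without it, 0 of 40 members passed FDR < 0.05, against 3.9% of all genes tested. At an unadjusted p under 0.05, 9 members then lay higher (13.8% of all genes) and 2 lower (16.6%), namely AURKB and SPC25.

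**Figure D2:**
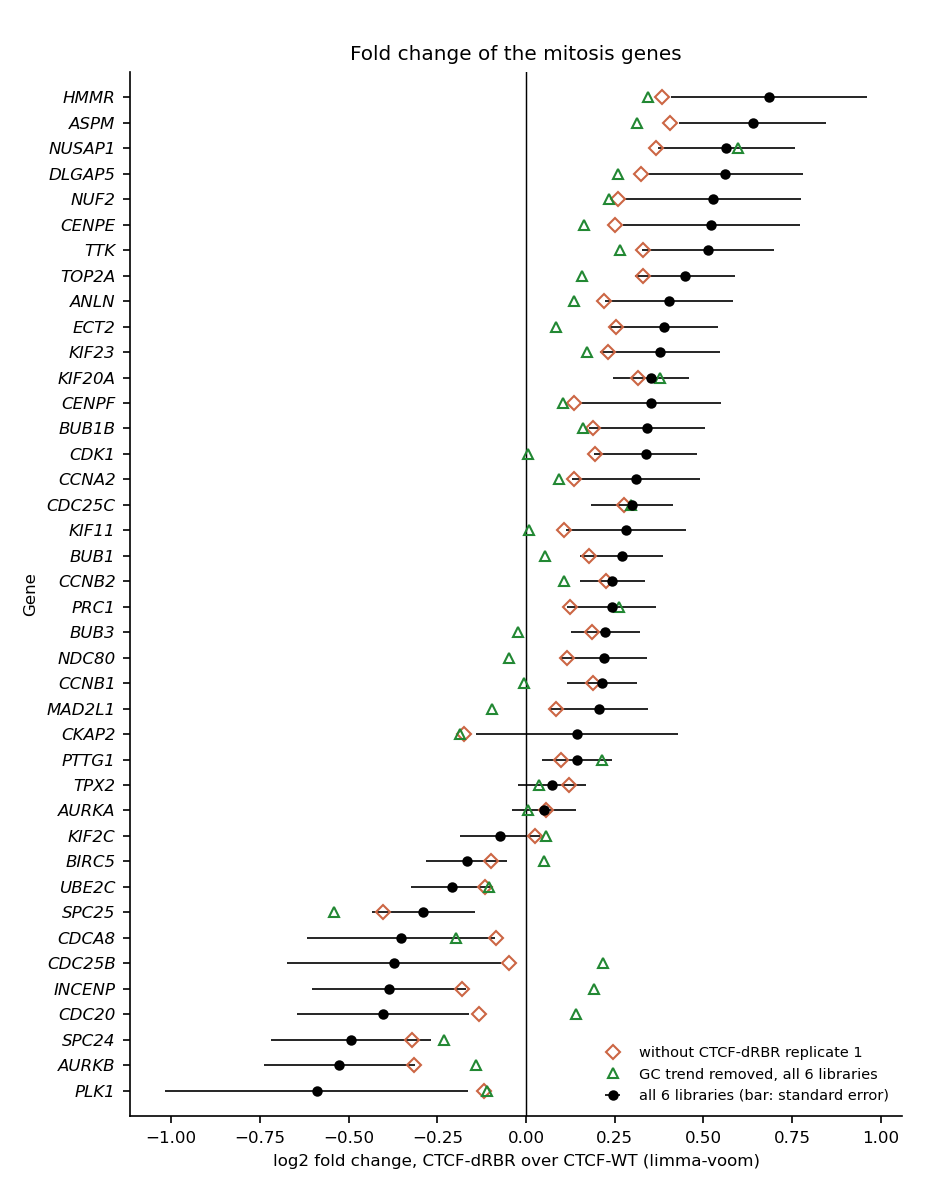
Log2 fold change of CTCF-dRBR over CTCF-WT for each of the 40 members (rows) by limma-voom, as black points with their standard error for all 6 libraries, open diamonds without CTCF-dRBR replicate 1, and open triangles after removal of the trend with GC content. Most diamonds and triangles lie closer to 0 than the points, and the diamonds of CKAP2 (−0.17) and KIF2C (0.024) lie on the other side of 0.

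The promoters of the members were read because most of these genes are known to share 2 short motifs. RefSeq promoter windows, from 250 bases before to 50 bases after the transcription start on GRCh38.p14, were found for 34 of the 40 members, and for AURKA, BIRC5, BUB3, TTK, TPX2 and UBE2C no window was in the table. The CHR element was searched as TTTGAA, its variant as TTCGAA and the CCAAT box as CCAAT, each on both strands, with matches allowed to overlap. TTTGAA and TTCGAA differ in 1 letter and cannot match the same bases. The windows printed are the last 100 bases before the start of the 3 members with the highest and the 3 with the lowest log2 fold change among the 12 that carry TTTGAA on the gene's strand within 70 bases of the start. They are shown to set promoters of members at both ends of the range side by side. All 6 genes lie on the + strand, at chr5:163460532-163460631 for HMMR, chr7:36389762-36389861 for ANLN, chr15:69414249-69414348 for KIF23, chr11:62123911-62124010 for INCENP, chr1:43358881-43358980 for CDC20 and chr16:23678789-23678888 for PLK1 (GRCh38.p14). Sequences run 5′ to 3′, and capitals mark TTTGAA and CCAAT or their reverse complements, TTCAAA and ATTGG, with adjoining or overlapping matches printed as 1 run.
HMMR: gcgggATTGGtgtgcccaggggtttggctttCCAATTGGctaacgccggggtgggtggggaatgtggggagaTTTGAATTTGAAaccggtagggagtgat
ANLN: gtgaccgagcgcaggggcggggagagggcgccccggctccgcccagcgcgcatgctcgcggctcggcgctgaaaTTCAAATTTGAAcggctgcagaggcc
KIF23: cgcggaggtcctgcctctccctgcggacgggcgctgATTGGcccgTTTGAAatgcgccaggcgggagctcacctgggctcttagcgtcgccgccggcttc
INCENP: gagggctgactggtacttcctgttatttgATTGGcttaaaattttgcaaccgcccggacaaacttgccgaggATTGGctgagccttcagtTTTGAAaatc
CDC20: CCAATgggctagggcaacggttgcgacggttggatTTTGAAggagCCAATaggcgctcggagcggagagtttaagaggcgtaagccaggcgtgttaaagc
PLK1: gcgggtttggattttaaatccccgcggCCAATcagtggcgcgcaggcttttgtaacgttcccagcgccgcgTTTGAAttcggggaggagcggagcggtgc

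In these windows the first base of TTTGAA lay 28 bases before the start in HMMR, 20 in ANLN, 55 in KIF23, 10 in INCENP, 65 in CDC20 and 29 in PLK1. HMMR has TTTGAA in 2 directly adjoining copies and 3 matches to the CCAAT box, and ANLN has TTTGAA next to its reverse complement and no CCAAT box in this window. PLK1, at the lowest log2 fold change (−0.59), and HMMR, at the highest (0.69), thus carry TTTGAA at nearly the same distance from the start. With the GC trend removed, PLK1 was at −0.11 and HMMR at 0.34.

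TTTGAA was present in the windows of 23 of the 34 members (67.6%, Wilson 95% interval 50.8% to 80.9%), in 18.2% of the 27305 genes in the table, and in 14.2% of the 8822 protein-coding genes tested. In the 100 bases before the start alone, the shares were 38.2% of members and 4.09% of the protein-coding genes tested. CCAAT was present in 27 of 34 members (79.4%) and in 44.2% of the protein-coding genes tested, and TTCGAA in 3 members (8.82%), namely BUB1, NDC80 and CDC25B, and in 2.41%. Both TTTGAA and CCAAT were found in 19 members, and neither in CENPE, KIF2C and CKAP2. The median GC content of the members' windows was 61.2%, against 64.3% for the protein-coding genes tested. A match describes the letters in the window, without showing that a factor binds there.

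Members with and without the motif lay on both sides of 0. Of the 23 members with TTTGAA, 18 had a log2 fold change above 0 and 5 below (median 0.34, range −0.59 to 0.69). Of the 11 members with a window but no TTTGAA, 7 lay above 0 and 4 below (median 0.14, range −0.53 to 0.52). These values are as counted, and the difference between the sets was not tested. With the GC trend removed, INCENP (0.19) and CDC20 (0.14), which carry TTTGAA, turned to above 0, and MAD2L1 (−0.095) and NDC80 (−0.048) to below. Of those without it, CDC25B and KIF2C turned to above 0, and CCNB1 and CKAP2 to below. Medians by motif were not determined there.

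**Figure D3:**
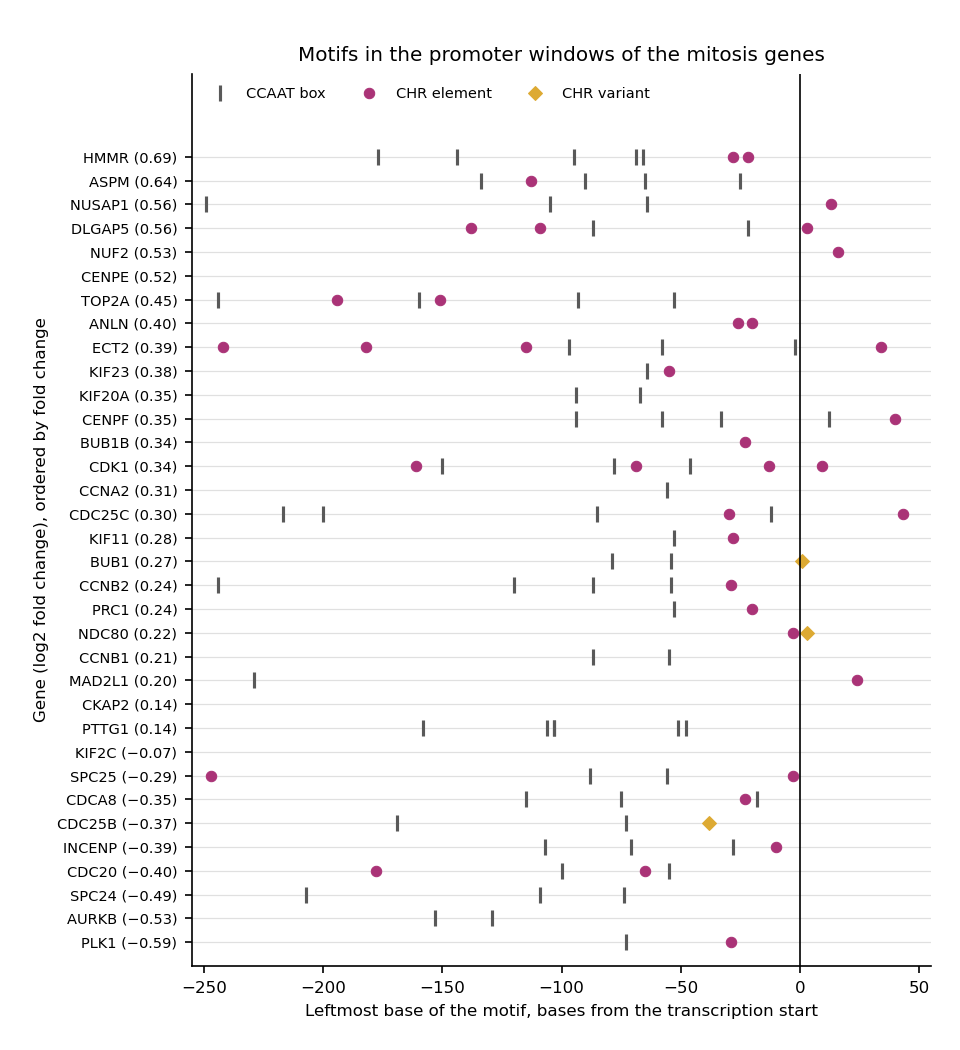
Position of each motif match (horizontal axis, bases from the transcription start to the leftmost base of the match) in the promoter windows of 34 members (rows, ordered by log2 fold change, printed beside each symbol), with circles for the CHR element, diamonds for its variant and bars for CCAAT boxes. The 6 members with more than 1 window have the matches of all their windows on 1 row, and circles occur at the top of the order (HMMR, ASPM, NUSAP1) and at its bottom (PLK1, CDC20, INCENP).

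The cyclins, CDK1 and its activating phosphatases gave 5 members above 0 and 1 below, with a median log2 fold change of 0.27, and 0.10 after removal of the GC trend, described further on. CDK1, the kinase that starts mitosis (chr10:62538089-62554610, + strand, GRCh37), had 238, 242 and 257 CPM in CTCF-WT replicates 1 to 3 and 377, 304 and 262 CPM in CTCF-dRBR replicates 1 to 3. The groups did not overlap, with CTCF-dRBR above CTCF-WT, by 5.1 CPM in the closest pair, and the log2 fold change was 0.34 ± 0.14 (SE), adjusted p = 0.20 by limma-voom with Benjamini-Hochberg adjustment, as for all adjusted p-values below. CCNB1, the cyclin B that activates CDK1 (chr5:68462962-68474072, + strand), had 167, 181 and 195 CPM in CTCF-WT and 216, 217 and 198 CPM in CTCF-dRBR, with no overlap and a difference of 0.21 ± 0.10 (SE), adjusted p = 0.22. CTCF-dRBR replicate 1 was not the extreme library for CCNB1, and without it the log2 fold change was 0.19. With the GC trend removed, CCNB1 was at −0.0051 and CDK1 at 0.0069. CCNB2, the other mitotic cyclin B, had a log2 fold change of 0.24 ± 0.091 (SE), adjusted p = 0.18, and CCNA2, cyclin A, of 0.31 ± 0.18 (SE), adjusted p = 0.28, with 234, 260.1 and 300 CPM in CTCF-WT and 418, 306 and 275 CPM in CTCF-dRBR. CCNA2 shares its locus with EXOSC9 on the opposite strand, and the deposited tables are named as stranded, while the strand setting used in counting is not given in the sources used here. The phosphatases differed in sign, with CDC25C at 0.30 ± 0.12 (SE), adjusted p = 0.19 and CDC25B at −0.37 ± 0.30 (SE), adjusted p = 0.40, but with the GC trend removed both lay above 0, at 0.30 and 0.22. CDC25C lay between 18.9 and 22.04 CPM in CTCF-WT and between 24.1 and 25.6 CPM in CTCF-dRBR, while CDC25B had 8.19 CPM in CTCF-dRBR replicate 1 and 16.4 to 19.9 CPM in the other 5 libraries.

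Of the mitotic kinases outside the passenger complex, PLK1 had the lowest log2 fold change of all members and AURKA one of the smallest in size. PLK1, which acts on centrosomes, kinetochores and the midzone (chr16:23688977-23701688, + strand), had 31.2, 25.6 and 22.4 CPM in CTCF-WT and 7.72, 21.6 and 26.9 CPM in CTCF-dRBR. The groups overlapped, since CTCF-dRBR replicate 3 exceeded 2 of the CTCF-WT libraries, and only replicate 1 lay far below. The log2 fold change was −0.59 ± 0.43 (SE), adjusted p = 0.36, and it was −0.12 without CTCF-dRBR replicate 1 and −0.11 after removal of the GC trend. AURKA, the Aurora kinase of the spindle poles (chr20:54944445-54967393, − strand), had 70.02, 72.7 and 78.3 CPM in CTCF-WT and 75.3, 75.9 and 77.6 CPM in CTCF-dRBR. These 6 values lay within 1.12-fold of each other, and the log2 fold change was 0.051 ± 0.09 (SE), adjusted p = 0.69.

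All 4 members of the chromosomal passenger complex, which corrects faulty kinetochore attachments and later directs cytokinesis, had a log2 fold change below 0 (median −0.37), although 2 of 4 lay above 0 once the GC trend was removed, and all 4 lay above 0 on deposited TPM, where the median of all genes tested was 0.40. AURKB, its kinase (chr17:8108051-8113918, − strand), had 82.1, 80.97 and 72.7 CPM in CTCF-WT and 37.9, 57.6 and 69.3 CPM in CTCF-dRBR. Every CTCF-dRBR library lay below every CTCF-WT library, with replicate 1 lowest and replicate 3 within 3.43 CPM of CTCF-WT, and the log2 fold change was −0.53 ± 0.21 (SE), adjusted p = 0.19. INCENP, the scaffold of the complex, was at −0.39 ± 0.22 (SE), adjusted p = 0.27, CDCA8 (borealin) at −0.35 ± 0.27 (SE), adjusted p = 0.37, and BIRC5 (survivin) at −0.17 ± 0.11 (SE), adjusted p = 0.33. Without CTCF-dRBR replicate 1 all 4 still lay below 0, with a median of −0.14 and an adjusted p of 0.116 for AURKB, the lowest of the 4.

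The 5 spindle assembly checkpoint members all had a log2 fold change above 0, with a median of 0.27 that became 0.055 after removal of the GC trend, where BUB3 (−0.021) and MAD2L1 (−0.095) lay below 0. BUB1, the kinase that recruits checkpoint proteins to kinetochores (chr2:111395105-111435640, − strand), had 223, 230.5 and 254 CPM in CTCF-WT and 322, 279 and 256 CPM in CTCF-dRBR. The groups did not overlap, but the closest libraries, replicate 3 of each group, were 1.2 CPM apart, and the difference was 0.27 ± 0.12 (SE), adjusted p = 0.20. MAD2L1, the MAD2 protein that holds CDC20 inactive (chr4:120976778-120988013, − strand), had 162, 179 and 198 CPM in CTCF-WT and 244, 196 and 184 CPM in CTCF-dRBR. CTCF-WT replicate 3 exceeded 2 of the CTCF-dRBR libraries, and the log2 fold change was 0.20 ± 0.14 (SE), adjusted p = 0.33. TTK, the MPS1 kinase at the top of the checkpoint, was at 0.51 ± 0.19 (SE), adjusted p = 0.18, with 97.3, 103 and 119 CPM in CTCF-WT and 197, 144 and 124 CPM in CTCF-dRBR. BUB1B (BUBR1) was at 0.34 with an adjusted p of 0.22, and BUB3 at 0.22 with an adjusted p of 0.20.

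The 3 members that bring about anaphase and exit did not share a sign, with a median of −0.21 that turned to 0.14 with the GC trend removed, where CDC20 was at 0.14, UBE2C at −0.10 and PTTG1 at 0.22. On log2(TPM + 1) all 3 lay above 0. CDC20, the activator of the APC/C (chr1:43824652-43828874, + strand), had 141, 144 and 133 CPM in CTCF-WT and 69.3, 119.6 and 136 CPM in CTCF-dRBR. CTCF-dRBR replicate 1 lay far below every other library, while replicate 3 lay inside the CTCF-WT range, and the log2 fold change was −0.40 ± 0.24 (SE), adjusted p = 0.29. UBE2C, the E2 enzyme of the APC/C, was at −0.21 ± 0.12 (SE), adjusted p = 0.26, with all CTCF-dRBR libraries below CTCF-WT by at least 5.6 CPM. PTTG1 (securin), which restrains the protease that separates sister chromatids, was at 0.14 ± 0.10 (SE), adjusted p = 0.34, with overlapping groups.

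The 6 kinetochore members had a median log2 fold change of 0.29, and 0.029 with the GC trend removed. The NDC80 complex, which binds the microtubule, is made of NDC80, NUF2, SPC24 and SPC25, and the log2 fold changes of NUF2 (0.53) and NDC80 (0.22) lay above 0 and those of SPC24 (−0.49) and SPC25 (−0.29) below. This division was not kept with the GC trend removed, where NDC80 was at −0.048, beside 0.23 for NUF2, −0.23 for SPC24 and −0.54 for SPC25. On log2(TPM + 1) all 6 kinetochore members lay above 0. The median of all genes tested was 0.40 there, so that this setting cannot decide on the division. NDC80 (chr18:2571556-2616634, + strand) had 87.4, 85.1 and 93.4 CPM in CTCF-WT and 119.9, 101 and 92.04 CPM in CTCF-dRBR, with CTCF-WT replicate 3 above CTCF-dRBR replicate 3, and a difference of 0.22 ± 0.12 (SE), adjusted p = 0.26. SPC24 (chr19:11242196-11266483, − strand) had 62.2, 58.7 and 47.3 CPM in CTCF-WT and 28.9, 38.1 and 52.2 CPM in CTCF-dRBR. CTCF-dRBR replicate 3 exceeded CTCF-WT replicate 3, and the difference was −0.49 ± 0.23 (SE), adjusted p = 0.21. For SPC25 the pattern over libraries was another one, with 20.3, 18.6 and 19.4 CPM in CTCF-WT and 19.1, 14.9 and 14.5 CPM in CTCF-dRBR. Here CTCF-dRBR replicate 1 lay inside the CTCF-WT range, and replicates 2 and 3 lay below it. The log2 fold change of SPC25 was −0.29 ± 0.14 (SE), adjusted p = 0.23, and without replicate 1 it was −0.40 with an adjusted p of 0.0734. CENPF, a large protein of the outer kinetochore (chr1:214776528-214837917, + strand), had 828, 827 and 921 CPM in CTCF-WT and 1476, 1016 and 876 CPM in CTCF-dRBR. CTCF-WT replicate 3 exceeded CTCF-dRBR replicate 3, and the difference was 0.35 ± 0.20 (SE), adjusted p = 0.26. CENPE, a kinetochore motor, was at 0.52 ± 0.25 (SE), adjusted p = 0.22, with 416 CPM in CTCF-dRBR replicate 1 and at most 266 CPM elsewhere.

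Spindle motors and microtubule proteins gave the highest values of the list, with 7 of 8 log2 fold changes above 0 and a median of 0.42 (0.16 with the GC trend removed). HMMR, which helps to assemble and place the spindle (chr5:162887209-162918947, + strand), had 138, 148 and 178 CPM in CTCF-WT and 379, 223 and 181 CPM in CTCF-dRBR. The groups did not overlap, yet CTCF-dRBR replicate 3 lay only 3.4 CPM above the highest CTCF-WT library, with replicate 1 far above it. The log2 fold change was 0.69 ± 0.28 (SE), adjusted p = 0.19, and 0.38 without replicate 1. ASPM, a spindle-pole protein needed for the growth of the brain (chr1:197053251-197115824, − strand), had 420.5, 446 and 467 CPM in CTCF-WT and 954, 635 and 547 CPM in CTCF-dRBR. Its lowest CTCF-dRBR library exceeded its highest CTCF-WT library by 79.7 CPM, and the difference was 0.64 ± 0.21 (SE), adjusted p = 0.16. NUSAP1, which bundles spindle microtubules (chr15:41612992-41673248, + strand) and overlaps OIP5 on the opposite strand, had 402, 417 and 504 CPM in CTCF-WT and 851, 600.5 and 535 CPM in CTCF-dRBR, again without overlap, at 0.56 ± 0.19 (SE), adjusted p = 0.16.

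KIF11, the motor that pushes the spindle poles apart (chr10:94333862-94415152, + strand), had 277, 293 and 328 CPM in CTCF-WT and 461, 346 and 302 CPM in CTCF-dRBR. CTCF-WT replicate 3 exceeded CTCF-dRBR replicate 3, and the log2 fold change was 0.28 ± 0.17 (SE), adjusted p = 0.29. TPX2, which activates AURKA on spindle microtubules (chr20:30327074-30389608, + strand), had 189, 168 and 180.4 CPM in CTCF-WT and 175, 198 and 192 CPM in CTCF-dRBR, at 0.074 ± 0.10 (SE), adjusted p = 0.59, with CTCF-dRBR replicate 1 inside the CTCF-WT range. DLGAP5, a factor of spindle stability, was at 0.56 ± 0.22 (SE), adjusted p = 0.19. CKAP2 had the widest spread inside CTCF-dRBR relative to its fold change, with 188, 202 and 231 CPM in CTCF-WT against 359.7, 206 and 163 CPM in CTCF-dRBR, so that this group held both its highest and its lowest library. Its log2 fold change of 0.14 ± 0.28 (SE), adjusted p = 0.73 became −0.17 without CTCF-dRBR replicate 1. KIF2C, a kinesin that takes microtubules apart at kinetochores, was at −0.073 ± 0.11 (SE), adjusted p = 0.66.

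The 5 central spindle and cytokinesis members all lay above 0, with log2 fold changes from 0.24 (PRC1) to 0.40 (ANLN) and a median of 0.38, and all 5 stayed above 0 after removal of the GC trend (median 0.17) and without CTCF-dRBR replicate 1 (median 0.23). KIF23, the motor subunit of centralspindlin (chr15:69706585-69740766, + strand), had 90.3, 93.1 and 110.4 CPM in CTCF-WT and 157, 125 and 105 CPM in CTCF-dRBR. CTCF-WT replicate 3 exceeded CTCF-dRBR replicate 3, and the difference was 0.38 ± 0.17 (SE), adjusted p = 0.21. KIF20A, a kinesin of the midzone, had 119, 128 and 146 CPM in CTCF-WT and 175, 166 and 160.2 CPM in CTCF-dRBR, a spread of 7.34 CPM (SD, n = 3) within CTCF-dRBR. Its log2 fold change of 0.35 ± 0.11 (SE), adjusted p = 0.15 hardly depended on replicate 1 (0.32 without it), but BRD8 and CDC23 overlap the gene on the opposite strand. ECT2, which activates RhoA at the division plane, was at 0.39 ± 0.15 (SE), adjusted p = 0.19. ANLN, which ties actin to the contractile ring and overlaps KIAA0895, was at 0.40 ± 0.18 (SE), adjusted p = 0.21, and PRC1, which bundles midzone microtubules, at 0.24 ± 0.12 (SE), adjusted p = 0.24.

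TOP2A, the topoisomerase that untangles chromosomes (chr17:38544777-38574148, − strand), had 889.9, 927 and 1003 CPM in CTCF-WT and 1506, 1305 and 1071 CPM in CTCF-dRBR. The CTCF-dRBR libraries lay above CTCF-WT by at least 68.0 CPM, with a log2 fold change of 0.45 ± 0.14 (SE), adjusted p = 0.15, and 0.33 (adjusted p = 0.1205) without CTCF-dRBR replicate 1.

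**Figure D4:**
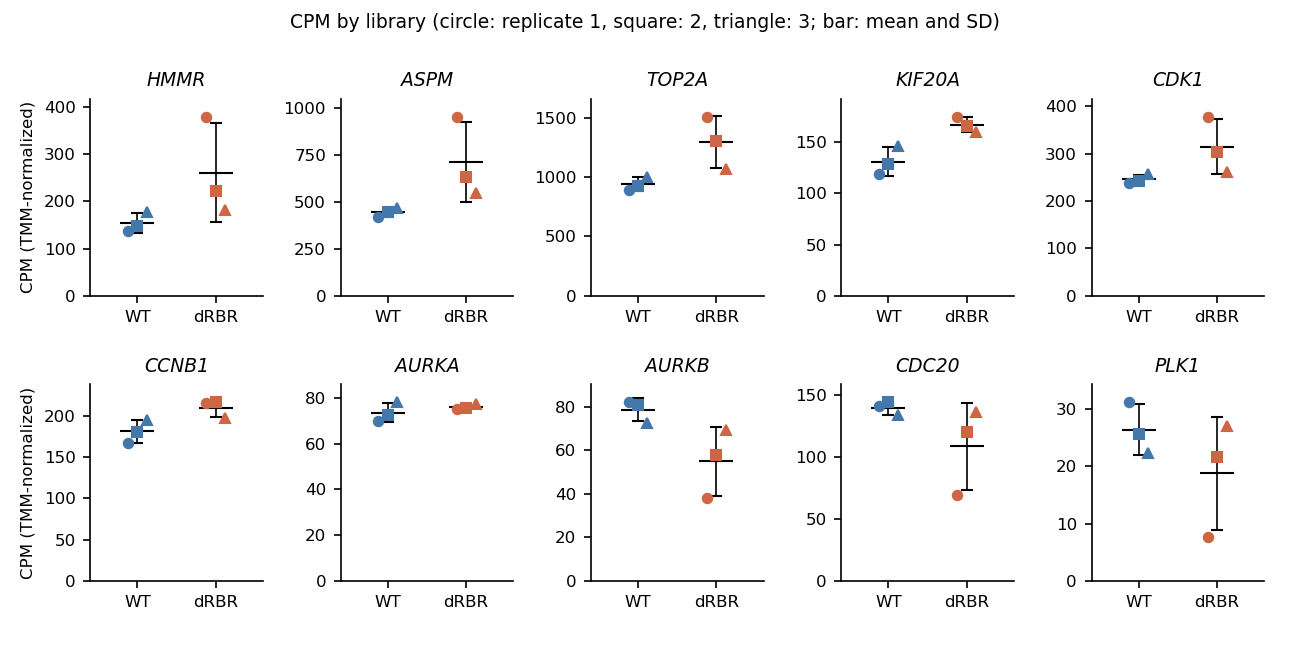
CPM (vertical axes, from 0) of 10 members in CTCF-WT (blue) and CTCF-dRBR (orange), 1 point per library by replicate number, with the mean as a line and the SD as bars. KIF20A and TOP2A have all CTCF-dRBR libraries above CTCF-WT, AURKB has all of them below, and in HMMR, ASPM, CDC20 and PLK1 replicate 1 of CTCF-dRBR lies farthest from the others.

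Levels were compared between genes per length, on deposited TPM (counts scaled to gene length and library). Median TPM in CTCF-WT covered a 50.5-fold range, from 177 (134 to 319.5) (lowest to highest library) for BUB3 to 3.51 (3.18 to 6.09) for CDC25B. After BUB3 came PTTG1 at 147 (124 to 250.3), NUSAP1 at 145 (121 to 237), TOP2A at 99.2 (76.5 to 172) and CDK1 at 80.9 (63.6 to 129.6). At the lower end stood ANLN at 11.1 (8.22 to 24.9), SPC25 at 9.14 (8.2 to 17.5), PLK1 at 8.23 (8.0 to 14.5) and CDC25C at 6.92 (5.73 to 11.4). Of the 39 pairs of neighbors in this order, 9 kept their order in all 6 libraries and 30 did not, so that most neighbors did not differ beyond their spread. The upper genes of the 9 kept pairs were NUSAP1, TOP2A, PRC1, MAD2L1, HMMR, INCENP, CENPE, ANLN and CDC25C, while CDK1 exceeded its neighbor CCNB1 in 5 of 6 libraries. The order was similar in CTCF-dRBR at its ends, with median TPM of 338 (279 to 359) for BUB3, 324 (231 to 485) for NUSAP1, 13.5 (10.99 to 17.4) for CDC25C and 6.03 (3.79 to 6.14) for CDC25B. TPM were not comparable between libraries as a whole, because protein-coding genes held from 30.3% to 63.2% of the TPM of a library against 82.5% to 92.1% of its counts.

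The log2 fold change of a member followed the GC content of its transcript, as it did over all genes. Over the 40 members, Spearman's rho between GC content of the longest annotated transcript and log2 fold change was −0.72, and over the 13654 genes with a value it was −0.68. These are correlations across genes that share the same 6 libraries. The 20 members of lower GC content (35.4% to 42.1%) had 19 log2 fold changes above 0 and a median of 0.34, where all genes tested of that GC range had a median of 0.27. The 20 members of higher GC content (42.3% to 59.1%) divided into 10 above and 10 below 0 with a median of −0.011, against −0.10 for all genes of their range. As a group the members were poor in GC, with a median of 42.2% against 47.0% over all genes tested. The trend also ran between libraries. Spearman's rho of GC content with a library's deviation from the mean of the 6 was 0.70, 0.67 and 0.33 in CTCF-WT replicates 1 to 3 and −0.78, −0.41 and 0.50 in CTCF-dRBR replicates 1 to 3, so that CTCF-dRBR replicate 3 sided with CTCF-WT.

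After a smooth GC trend was subtracted from each library, rho over the members was −0.087 and their median log2 fold change was 0.099, with 29 above 0 and 11 below, and the median over all genes was 0.00068. SPC25 was then the 1 member of 40 past FDR < 0.05, against 9.62% of all genes, at a log2 fold change of −0.54 and an adjusted p of 0.026. Over all alternatives fitted per gene its adjusted p ranged from 0.0017 to 0.61, and its direction turned on deposited TPM, at 0.63 on log2(TPM + 1) and 0.20 after rescaling over protein-coding genes. The medians of all genes tested were 0.40 and 0.087 there. SPC25 has a GC content of 39.9%, and 19 of the 20 members of lower GC content lay on the other side of 0 as counted. NUSAP1 (0.60) and KIF20A (0.38) had the highest values after removal, above HMMR (0.34). With the trend removed and CTCF-dRBR replicate 1 left out, 7 members (17.5%) passed FDR < 0.05, against 24.3% of all genes. They were CDC25C, NUSAP1, ASPM, KIF20A and TOP2A, which were higher in CTCF-dRBR, and SPC25 and CKAP2, which were lower, with adjusted p-values from 0.013 to 0.049 that ranged from 0.00036 to 0.94 over all alternatives. With library weights (voomWithQualityWeights), 33 members (82.5%) passed, against 68.2% of all genes. The weights were 1.26, 5.646 and 0.4962 in CTCF-WT replicates 1 to 3 and 0.097, 6.188 and 0.4723 in CTCF-dRBR replicates 1 to 3. This fit thus rested mostly on replicate 2 of each group. Its counts cannot show what a lower weight for CTCF-dRBR replicate 1 alone would give.

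**Figure D5:**
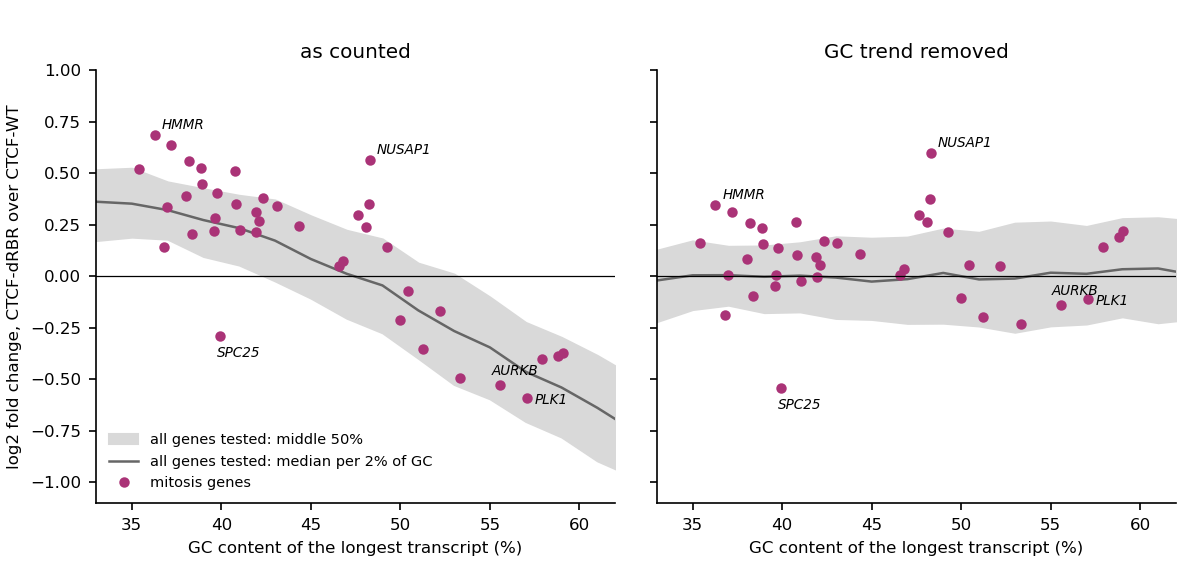
Log2 fold change of CTCF-dRBR over CTCF-WT (vertical axis) against GC content of the longest transcript in percent (horizontal axis) for the 40 members (points), with the median and the middle 50% of all genes tested per 2% of GC, as counted (left) and with the GC trend removed (right). As counted, 27 members lie within the band, 11 above it, NUSAP1 and HMMR among them, and 2 below it, SPC25 and CKAP2. At the right, 28 lie within, 10 above and 2 below, with NUSAP1 at 0.60 and SPC25 at −0.54.

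Other genes of the same pathways were taken from lists set by function, with earlier results of these data known. These lists each had 0 genes past FDR < 0.05 by limma-voom. Their counts at an unadjusted p under 0.05 stand beside 12.6% of all genes higher and 12.8% lower, and their counts past FDR < 0.05 with the GC trend removed beside 9.62% of all genes. The 15 APC/C subunits with FZR1 had a median log2 fold change of 0.048, with 0 higher and 3 lower at an unadjusted p under 0.05, and with the GC trend removed the median was −0.063 and 0 passed FDR < 0.05. Those of smallest p were ANAPC2 and ANAPC11, which form the catalytic core. ANAPC2 had 18.6, 16.9 and 13.2 CPM in CTCF-WT and 2.11, 7.38 and 10.5 CPM in CTCF-dRBR (−1.49 ± 0.53 (SE), adjusted p = 0.17), and ANAPC11 had 48.03, 48.3 and 35.02 CPM and 10.7, 26.3 and 30.98 CPM (−1.0 ± 0.37 (SE), adjusted p = 0.18). In both genes all CTCF-dRBR libraries lay below CTCF-WT, and replicate 1 was the lowest. With the GC trend removed ANAPC2 was at −0.68 (adjusted p = 0.054) and ANAPC11 at −0.50 (adjusted p = 0.077). The 32 other kinetochore and centromere genes had a median of 0.16, with 6 higher and 3 lower, and with the GC trend removed a median of 0.00036, 16 above and 16 below 0, and 0 past FDR < 0.05. Among them were SGOL2, a protector of centromeric cohesion (0.44 ± 0.15 (SE), adjusted p = 0.16), and KNTC1, a checkpoint protein (0.32 ± 0.11 (SE), adjusted p = 0.16), which were at 0.080 and 0.059 with the GC trend removed. The 8 condensin subunits had a median of −0.080, with 0 higher and 1 lower, and −0.082 with the GC trend removed, where 2 passed FDR < 0.05. NCAPD2 was at −0.59 ± 0.18 (SE), adjusted p = 0.15 and NCAPG at 0.30 ± 0.14 (SE), adjusted p = 0.22. With the GC trend removed they were at −0.40 (adjusted p = 0.042) and 0.0088.

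The 32 other G2/M genes had a median of −0.036, with 8 higher and 6 lower at an unadjusted p under 0.05, and −0.035 with the GC trend removed, where 3 passed FDR < 0.05. TACC3, a spindle protein that works with AURKA, had 49.6, 42.5 and 33.9 CPM in CTCF-WT and 14.97, 17.2 and 21.8 CPM in CTCF-dRBR. The groups did not overlap, with CTCF-dRBR below CTCF-WT, at −1.2 ± 0.21 (SE), adjusted p = 0.096, and without CTCF-dRBR replicate 1 TACC3 was lower at −1.1 with an adjusted p of 0.0426. With the GC trend removed TACC3 was at −0.72 (adjusted p = 0.035). CDC25A, the CDC25 phosphatase of earlier phases, was at −0.31 ± 0.083 (SE), adjusted p = 0.14, and −0.12 with the GC trend removed. MKI67, the Ki-67 proliferation antigen and named after its values were seen, had 365, 332 and 335 CPM in CTCF-WT and 319.6, 259 and 248 CPM in CTCF-dRBR, at −0.33 ± 0.12 (SE), adjusted p = 0.18, and −0.44 (adjusted p = 0.0463) without CTCF-dRBR replicate 1. With the GC trend removed MKI67 was at −0.30 (adjusted p = 0.16).

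Among the 17 regulators of G2/M transcription, with a median of −0.10, 2 were higher and 1 lower at an unadjusted p under 0.05, and with the GC trend removed the median was −0.0029 and 2 passed FDR < 0.05. RBL2 (p130), a subunit of the DREAM complex, was at 0.49 ± 0.12 (SE), adjusted p = 0.13, and NFYA, a subunit of the factor that binds CCAAT boxes, at −0.61 ± 0.16 (SE), adjusted p = 0.14. NFYA had 43.2, 41.9 and 36.4 CPM in CTCF-WT and 33.9, 24.5 and 23.5 CPM in CTCF-dRBR, and without CTCF-dRBR replicate 1 it was lower at −0.76 with an adjusted p of 0.0353. With the GC trend removed RBL2 was at 0.31 (adjusted p = 0.030) and NFYA at −0.66 (adjusted p = 0.041). FOXM1 and MYBL2, also named after their values were seen, had overlapping groups, at −0.44 ± 0.28 (SE), adjusted p = 0.31 for FOXM1 and −0.51 ± 0.50 (SE), adjusted p = 0.48 for MYBL2. Leaving out CTCF-dRBR replicate 1 gave −0.16 and 0.035, and removing the GC trend gave −0.052 and 0.16, so that MYBL2 turned in direction in both. The 24 S-phase genes had a median of −0.22, with 1 higher and 8 lower, and −0.075 with the GC trend removed, where 6 passed FDR < 0.05. MCM6, a subunit of the replicative helicase, had 163, 154 and 152 CPM in CTCF-WT and 99.04, 112 and 108 CPM in CTCF-dRBR (−0.56 ± 0.091 (SE), adjusted p = 0.096). RRM2, a subunit of ribonucleotide reductase, had 356, 316 and 329.5 CPM and 234, 243 and 228 CPM (−0.51 ± 0.088 (SE), adjusted p = 0.096). Both had all CTCF-dRBR libraries below CTCF-WT with little spread, and without CTCF-dRBR replicate 1 both were lower, at −0.51 (adjusted p = 0.0398) and −0.51 (adjusted p = 0.0426). With the GC trend removed MCM6 was at −0.73 (adjusted p = 0.024) and RRM2 at −0.59 (adjusted p = 0.019).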

How the data were processed

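The measurement was total RNA-seq after removal of ribosomal RNA, in 3 libraries of each group. According to the study's methods and the submitters' processing notes, reads were trimmed with Trim Galore (version 0.6.3), aligned to GRCh37 with STAR (version 2.7.9a) and quantified with RSEM (version 1.3.1). Expected counts were deposited as RSEM estimated them, without normalization. The deposited TPM were scaled by the authors over all genes of a library, per effective length. Reads were paired-end per the methods but single-end per the labels.

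A CPM of at least 1 in any library was required, and the 14044 genes left were scaled by TMM in edgeR (version 4.0.16) and tested by limma-voom in limma (version 3.58.1) under R (version 4.3.3), without covariates, two-sided, with Benjamini-Hochberg adjustment over all genes tested at 0.05, following the study's methods. Printed CPM are TMM-normalized, and log2 fold changes are CTCF-dRBR over CTCF-WT. The members, their roles and the other gene lists were chosen with earlier results of these data known. All 40 members are named by role. Values per library are given for 14 members chosen by role, for the 3 highest and 3 lowest log2 fold changes and for others a statement needs. From each other list the 2 genes of smallest p are named, with values per library for some. In the other lists, CENPC replaced an older symbol, 1 symbol without a row was dropped, and of symbols with 2 rows the one with more counts was used.

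Gene positions, GC content and overlaps came from Gencode v44 lifted to GRCh37 (GC for 13654 genes, 97.2% of those tested). The GC trend of each library's deviation in log2 CPM (prior count 1) was fitted by loess (span 0.5, degree 2) and subtracted from the counts. Promoters came from RefSeq (GRCh38.p14). Alternatives were edgeR's quasi-likelihood test and DESeq2 (version 1.42.0) on rounded counts, voomWithQualityWeights, limma-trend on TPM with a pseudocount of 1 or 0.1 before log2, other scalings and filters, the replicate number as a block, and leaving out each library. The fits were tested on simulated counts. Intervals and count limits cover counting error only. Plots were made in matplotlib (version 3.10.9). ChIP-seq, ATAC-seq and the earlier RNA-seq of the study were not analyzed here.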

Additional observations from a re-analysis of the deposited data

How the results depend on the processing

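No mitosis gene passed FDR < 0.05 by limma-voom, edgeR, DESeq2, the replicate block, either of the other scalings or filters, or with any 1 library left out. Counts past FDR < 0.05 were 33 members and 9583 genes with voomWithQualityWeights, 1 and 1314 with the GC trend removed, 7 and 3248 with the trend removed and CTCF-dRBR replicate 1 left out, 3 and 833 on log2(TPM + 1), and 3 and 760 on log2(TPM + 0.1). DESeq2 called 1619 genes. The 10 members higher and 1 lower at an unadjusted p under 0.05 (12.6% and 12.8% of all genes) became 27 and 8 with voomWithQualityWeights (34.0% and 37.4%), 19 and 0 on log2(TPM + 1) (26.8% and 2.02%), 17 and 0 on log2(TPM + 0.1) (26.4% and 2.16%), on log2(TPM + 1) rescaled over protein-coding genes (18.1% and 6.71%, chosen after seeing the data) and with library size alone (16.8% and 9.41%), and 1 and 0 with the replicate number as a block (4.59% and 5.55%). The lower count was 0 by edgeR (11%), 3 without a filter (7.14%), 2 with the GC trend removed (16.7%) and 3 with the trend removed and CTCF-dRBR replicate 1 left out (21.4%), and the higher count was 5 with the trend removed and the block (9.76%). With 1 library left out, these counts ranged from 0 to 19 higher (4.41% to 17.6% of all genes) and from 0 to 4 lower (5.56% to 23.4%), the genes past FDR < 0.05 from 0 to 535 (535 without CTCF-dRBR replicate 1), and the members without overlap, 16 and 2 in all 6 libraries, from 16 to 27 above (21.3% to 30.9% of all genes) and from 2 to 9 below (18.4% to 33.9%). On deposited TPM, 1 member lay above without overlap (13.1%) and 0 below (2.26%). The median log2 fold change of the members, 0.24, ranged from 0.13 (without CTCF-dRBR replicate 1) to 0.31 (without CTCF-dRBR replicate 3), and was 0.099 with the GC trend removed, 0.098 with the block added, 0.092 with the trend removed and CTCF-dRBR replicate 1 left out, 0.80 on log2(TPM + 1) and 0.82 on log2(TPM + 0.1), where all genes tested had medians of 0.40 and 0.54. Without a filter the medians were 0.15 for the members and 0.19 for all genes.

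Over the 15 alternatives fitted for each member, 23 members kept their direction in all, each of them higher in CTCF-dRBR. These alternatives include log2(TPM + 1), where every member was higher in CTCF-dRBR and all genes tested had a median of 0.40. No lower member could therefore keep its direction in all. The share of all genes tested that kept their direction was not determined. The log2 fold change changed sign with the GC trend removed in CCNB1 −0.0051, CDC25B 0.22, INCENP 0.19, BIRC5 0.051, BUB3 −0.021, MAD2L1 −0.095, CDC20 0.14, NDC80 −0.048, KIF2C 0.055 and CKAP2 −0.19. With the replicate block added these were CCNB1 −0.0060, CDC25B 0.21, INCENP 0.20, BIRC5 0.054, BUB3 −0.021, MAD2L1 −0.10, CDC20 0.14, NDC80 −0.048, KIF2C 0.054 and CKAP2 −0.18. With the trend removed and CTCF-dRBR replicate 1 left out they were CDC25B 0.24, PLK1 0.11, INCENP 0.10, BIRC5 0.00074, MAD2L1 −0.067, CDC20 0.12, NDC80 −0.017, KIF11 −0.026, KIF2C 0.085 and CKAP2 −0.35. Without CTCF-dRBR replicate 1 they were CKAP2 (from −0.17 to 0.39 over the 6 libraries left out in turn, the lowest without CTCF-dRBR replicate 1) and KIF2C (from −0.14 to 0.024 over the 6 libraries left out in turn, the highest without CTCF-dRBR replicate 1). On log2(TPM + 1) they were CDC25B 0.28, PLK1 0.12, AURKB 0.050, INCENP 0.62, BIRC5 0.39, CDCA8 0.16, CDC20 0.13, UBE2C 0.28, SPC24 0.16, SPC25 0.63 and KIF2C 0.68, and after rescaling over protein-coding genes INCENP 0.17, SPC25 0.20 and KIF2C 0.22. The causes were not tested. Same-numbered libraries did not deviate together (correlations of −0.34, 0.099 and −0.47), and differently numbered ones correlated from −0.27 to 0.42. These correlations cannot show whether libraries of the same number shared a culture or a preparation. With 3 libraries a group, 1 of them at 30034505 counts, missing FDR < 0.05 does not show that levels were equal.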

Other observations

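Ratios of 2 genes inside a library do not depend on its scaling factor in CPM, and in TPM they also depend on the effective length that RSEM gave each gene. The ratio of NDC80 to SPC25 in CPM was 4.30, 4.56 and 4.82 in CTCF-WT and 6.27, 6.75 and 6.33 in CTCF-dRBR, without overlap and with CTCF-dRBR replicate 1 the lowest of its group, while the ratio of their TPM was 2.55, 2.85 and 2.36 against 1.93, 3.00 and 3.40 and overlapped. For AURKB and INCENP the CPM ratio was 0.913, 0.921 and 0.876 in CTCF-WT and 0.803, 0.864 and 0.781 in CTCF-dRBR, also without overlap. CCNB1 to CCNB2 lay between 1.59 and 1.74 in all 6 libraries, and AURKA to TPX2 between 0.371 and 0.434. NUF2 to SPC24 had the widest range, 1.23 to 2.05 in CTCF-WT and 1.81 to 6.23 in CTCF-dRBR. All ratios are as counted, with the GC trend of each library in place. The GC content was 38.85% for NUF2 and 53.3% for SPC24, and their ratio was highest in CTCF-dRBR replicate 1. Whether the GC trend accounts for this was not tested. The pairs were chosen by their related roles and were not tested.

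Copies of members elsewhere in the genome were low. The pseudogene CDC20P1 had 5.20 to 10.0 CPM, with a log2 fold change of 0.53 (limma-voom, adjusted p = 0.19) against −0.40 for CDC20, and PTTG3P and PTTG2 reached at most 0.601 and 0.355 CPM, against at least 161 CPM for PTTG1. Reads from such copies and their parent genes can be exchanged in RSEM's estimates. Among the members overlapped by a gene tested on the opposite strand were CCNA2, CDC25C, NUF2, NUSAP1, KIF20A and ANLN.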
